A study of Mus musculus with 4 samples.

Results

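Transcripts of 3 chemokines of lymphoid tissue (*Cxcl13*, *Ccl19* and *Ccl20*), 2 chemokine receptors (*Cxcr5* and *Ccr6*) and 2 lymphotoxin chains (*Lta* and *Ltb*) were followed in ischemic mouse hindlimb muscle. These 7 of the 84 target genes of an inflammation RT-qPCR array were chosen by gene symbol, after the differences between the treatment groups on this same panel had been seen. Their differences between the groups are therefore given as a description, and where a fit across the whole panel also called some of them, that count is no independent evidence. FVB mice received intramuscular E-sel/AAV2/2, an adeno-associated virus of serotype 2/2 carrying the murine E-selectin gene, or LacZ/AAV2/2, the same kind of vector carrying a bacterial reporter gene as control. All mice of both groups then had the femoral artery and vein interrupted. They also received L-NAME, which blocks nitric oxide synthase, at 40 mg/kg per injection before and after surgery, and the injected thigh and calf muscles were taken at day 21. The study as a whole used mice of both sexes. The labels give neither the age nor the sex of the mice measured here, and the promoter that drives the transgene was not given in the sources used here. RNA from 3 mice was pooled per group and each pool was run on 2 arrays, so an SD below (n = 2) holds assay error only, and animals could not be compared. The same holds for the standard errors (SE) and p-values of the panel fit, which do not test an effect of treatment over animals.

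In a lymph node, CXCL13 made by stromal cells of the follicle draws in B cells and follicular helper T cells, which carry its receptor CXCR5. CCL19 draws T cells and mature dendritic cells into the T cell zone through CCR7, and CCL20 draws B cells, interleukin 17-producing T cells and immature dendritic cells through CCR6. Lymphotoxin β, the product of *Ltb*, anchors lymphotoxin α, the product of *Lta*, at the surface of lymphocytes, and the complex signals to the lymphotoxin β receptor on stromal cells, which is known to induce CXCL13 and CCL19 through NF-κB. Skeletal muscle has no organized lymphoid tissue of its own, but such genes are known from lymphoid aggregates that form in chronically inflamed organs. The genes for CCR7 and the lymphotoxin β receptor were not analysed here.

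The reference promoter sequences of genes whose levels are compared below are shown because *Ltb* and *Lta* lie in one cluster yet differed in their measured levels, and because the chemokines are known targets of NF-κB. They come from RefSeq (mouse build GRCm38.p6, strain C57BL/6J, not FVB), run 5′ to 3′ on the strand of the gene, and span 250 bases before to 50 bases after a transcription start. Capitals mark every match, on either strand, to the κB consensus of NF-κB (10 bases), to GGAGATTT, the core of a κB element known from the *Cxcl13* promoter, or to TATAAA, the TATA box.
Cxcl13 promoter, chr5:95956689-95956988, plus strand: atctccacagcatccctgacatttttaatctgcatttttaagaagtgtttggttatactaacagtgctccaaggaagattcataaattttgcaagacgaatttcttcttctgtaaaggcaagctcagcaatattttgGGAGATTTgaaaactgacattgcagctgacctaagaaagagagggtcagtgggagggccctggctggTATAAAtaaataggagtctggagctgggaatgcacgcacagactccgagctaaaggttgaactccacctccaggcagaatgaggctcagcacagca
Ccl20 promoter, chr1:83116516-83116815, plus strand: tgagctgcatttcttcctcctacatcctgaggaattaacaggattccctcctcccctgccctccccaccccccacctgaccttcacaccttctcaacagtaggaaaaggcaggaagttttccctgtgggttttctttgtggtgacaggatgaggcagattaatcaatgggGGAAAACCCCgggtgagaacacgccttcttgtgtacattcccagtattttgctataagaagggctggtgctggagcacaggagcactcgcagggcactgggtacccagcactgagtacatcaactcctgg
Ccr6 second promoter, chr17:8242276-8242575, plus strand: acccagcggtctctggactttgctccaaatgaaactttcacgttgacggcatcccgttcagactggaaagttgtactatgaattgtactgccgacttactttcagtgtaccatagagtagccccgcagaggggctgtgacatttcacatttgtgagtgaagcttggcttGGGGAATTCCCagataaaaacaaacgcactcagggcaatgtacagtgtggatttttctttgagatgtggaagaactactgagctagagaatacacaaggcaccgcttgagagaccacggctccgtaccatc
Ltb promoter, chr17:35194257-35194556, plus strand: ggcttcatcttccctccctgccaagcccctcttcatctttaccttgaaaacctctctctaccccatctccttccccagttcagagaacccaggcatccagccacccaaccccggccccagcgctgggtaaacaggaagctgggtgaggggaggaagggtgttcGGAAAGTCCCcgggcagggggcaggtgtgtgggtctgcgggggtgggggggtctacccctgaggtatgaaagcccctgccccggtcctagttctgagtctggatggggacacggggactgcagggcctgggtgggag
Lta promoter, chr17:35205302-35205601, minus strand: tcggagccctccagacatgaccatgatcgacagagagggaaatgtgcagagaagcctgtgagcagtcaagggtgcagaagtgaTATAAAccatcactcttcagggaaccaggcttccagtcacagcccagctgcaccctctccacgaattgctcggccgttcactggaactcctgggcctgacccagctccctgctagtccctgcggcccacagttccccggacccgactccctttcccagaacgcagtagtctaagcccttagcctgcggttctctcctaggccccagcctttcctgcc

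The *Cxcl13* window held GGAGATTT from 113 to 106 bases before the start and TATAAA from 46 to 41 bases before it. The κB consensus was matched in the windows of *Ccl20* (80 to 71 bases before the start), *Ltb* (87 to 78 bases before) and the second of 2 *Ccr6* windows, where overlapping matches on both strands lay from 81 to 71 bases before the start. The *Lta* window held TATAAA from 167 to 162 bases before the start and no κB match, and the windows of *Ccl19* and of the first *Ccr6* start held none of the 3 motifs. Of the 32851 promoter windows in the RefSeq set, 8.46% held the κB consensus, 1.06% GGAGATTT and 13.6% TATAAA. *Cxcr5* had no entry, so 6 of the 7 genes are covered. A match of letters is not evidence of binding, and no binding was measured.

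The threshold cycle (Ct) is the PCR cycle at which the fluorescence of a well crosses a set level, so that an early well holds more transcript than a late one, and 1 cycle is a 2-fold difference at full PCR efficiency. Each gene was set against the mean of the 5 reference genes of its own array (*Hsp90ab1*, *Gusb*, *Gapdh*, *B2m* and *Actb*) by subtraction (ΔCt), and levels are given as -ΔCt, where a higher value is more transcript on a log2 scale. One array stood apart: on LacZ/AAV2/2 replicate 1 the tested target genes came up 2.19 cycles later at the median than on LacZ/AAV2/2 replicate 2, whereas its reference genes came up 1.22 cycles later. That array lacked a Ct in 6 target wells, against 1 or 2 on the others. Values without it are given beside the results that it moves. The panel holds no gene that defines muscle fibers or endothelium, so the labelled tissue could not be checked, and in pooled tissue RNA fewer cells of a type cannot be told apart from less transcript per cell.

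*Cxcl13*, the ligand, gave Ct values of 26.44 and 25.17 with E-sel/AAV2/2 and of 33.02 and 29.42 with LacZ/AAV2/2 (replicates 1 and 2 in that order, here and below). Both E-sel/AAV2/2 arrays were earlier than both LacZ/AAV2/2 arrays. Its mean -ΔCt was -1.72 ± 0.55 against -6.58 ± 1.68 (SD, n = 2 each), a log2 difference of 4.87 or 29.2-fold, and the nearest pair of arrays from the 2 groups lay 3.29 apart. Without LacZ/AAV2/2 replicate 1 the difference was 3.68. In the E-sel/AAV2/2 pool *Cxcl13* stood at 30.4% of the mean reference level and ranked 3 of 84 targets, whereas in the LacZ/AAV2/2 pool it stood at 1.04% and ranked 23 of the 83 targets with a Ct in that pool. Ranks across genes compare different primer pairs and are only approximate.

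*Cxcr5*, the receptor for CXCL13 on B cells and follicular helper T cells, gave Ct values of 30.04 and 31.19 with E-sel/AAV2/2 and of 38.23 and 34.99 with LacZ/AAV2/2. The groups did not overlap, but the first LacZ/AAV2/2 well was near the end of the cycles recorded, where few template molecules remain. Its log2 difference was 5.45, from -6.53 ± 1.16 against -11.97 ± 1.43 (SD, n = 2 each), the highest among 77 target genes that had a Ct on every array. It was 4.44 without LacZ/AAV2/2 replicate 1, and 3.83 when every Ct above 35 was set to 35.

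*Ccl19*, the T cell zone chemokine, gave Ct values of 28.26 and 26.99 with E-sel/AAV2/2 and of 34.07 and 31.88 with LacZ/AAV2/2. None of the 4 values was above 35, and the groups did not overlap. The log2 difference was 4.80, from -3.54 ± 0.55 against -8.34 ± 0.68 (SD, n = 2 each), or 27.9-fold. Without LacZ/AAV2/2 replicate 1 it was 4.32.

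*Ccr6*, the receptor for CCL20, gave Ct values of 28.89 and 27.79 with E-sel/AAV2/2 and of 34.82 and 32.64 with LacZ/AAV2/2. These followed the values of *Ccl19* closely on every array. The log2 difference was 4.84, from -4.25 ± 0.43 against -9.09 ± 0.68 (SD, n = 2 each), with 4.06 between the nearest arrays of the 2 groups and 4.36 without LacZ/AAV2/2 replicate 1. Its ligand *Ccl20* ranked 45 of 84 targets in the E-sel/AAV2/2 pool and 71 of the 83 with a Ct in the LacZ/AAV2/2 pool. It gave Ct values of 33.71 and 32.14 with E-sel/AAV2/2, no Ct on the first LacZ/AAV2/2 array and 36.06 on the other. Against that 1 LacZ/AAV2/2 array its log2 difference was 3.20 (-8.84 ± 0.76, SD, n = 2, against -12.04), and the nearer E-sel/AAV2/2 array lay 2.66 above it. It was 4.49 with the missing well set to the latest Ct recorded on any array and 1.53 with late and missing wells set to 35.

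The 2 lymphotoxin chains stood apart from each other in the size of their difference. *Ltb*, the membrane anchor, gave Ct values of 27.89 and 28.83 with E-sel/AAV2/2 and of 32.06 and 33.00 with LacZ/AAV2/2, without overlap, and its log2 difference was 3.62 (-4.27 ± 1.02 against -7.89 ± 1.53, SD, n = 2 each). *Ltb* was earlier, not later, on LacZ/AAV2/2 replicate 1 than on replicate 2, against the run of the panel, and its difference was 4.70 without replicate 1 and 2.54 without replicate 2. *Lta*, the chain it anchors, gave Ct values of 32.57 and 33.75 with E-sel/AAV2/2 and of 35.24 and 33.56 with LacZ/AAV2/2, where E-sel/AAV2/2 replicate 2 (-ΔCt of -9.91) lay between the LacZ/AAV2/2 arrays (-9.99 and -9.54) once normalized. The log2 difference of *Lta* was 0.69 (-9.07 ± 1.19 against -9.76 ± 0.32, SD, n = 2 each), less than the SD among the E-sel/AAV2/2 arrays, and it was 0.46 without LacZ/AAV2/2 replicate 1 and turned to -0.15 without E-sel/AAV2/2 replicate 1 and to -0.75 with *B2m* as the only reference.

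**Figure D1:**
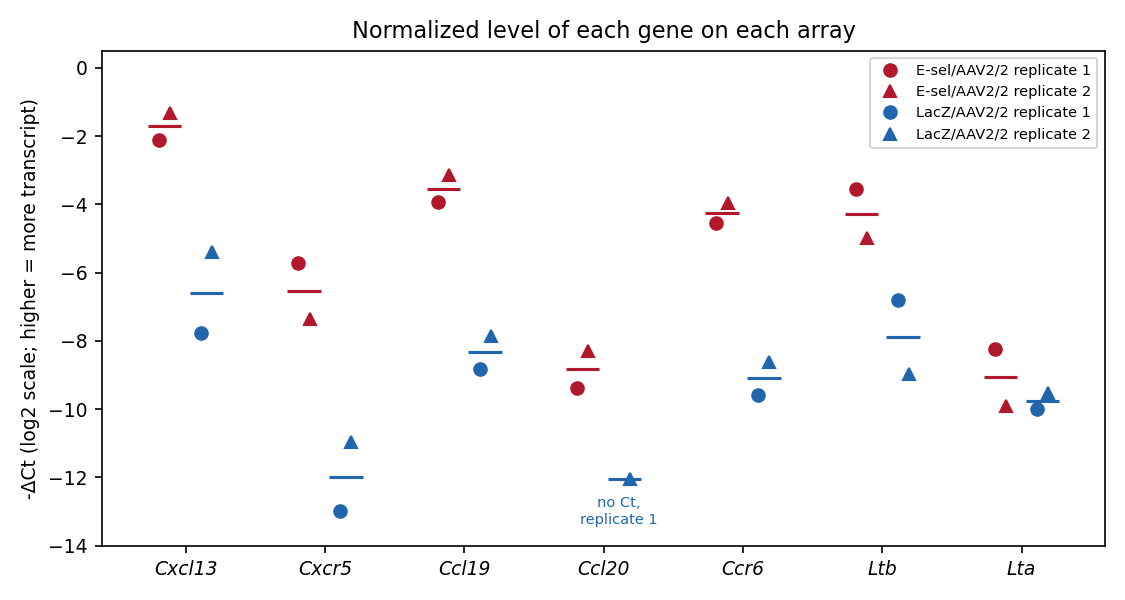
Normalized level (-ΔCt, log2 scale) of the 7 genes on each of the 4 arrays, with E-sel/AAV2/2 in red, LacZ/AAV2/2 in blue, circles for replicate 1, triangles for replicate 2 and short lines for group means. The red and blue points are apart for every gene but *Lta*, where E-sel/AAV2/2 replicate 2 sits at -9.91, between the LacZ/AAV2/2 arrays at -9.99 and -9.54, and *Ccl20* has a single LacZ/AAV2/2 point.

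The same 7 genes also took a different order in the 2 pools. With E-sel/AAV2/2 the order from highest to lowest was *Cxcl13*, *Ccl19*, *Ccr6*, *Ltb*, *Cxcr5*, *Ccl20* and *Lta*, running from 30.4% to 0.186% of the mean reference level. In that order the neighbors *Ccr6* and *Ltb* (0.02 apart) and *Ccl20* and *Lta* (0.24 apart) did not separate between arrays. With LacZ/AAV2/2 the order was *Cxcl13*, *Ltb*, *Ccl19*, *Ccr6*, *Lta*, *Cxcr5* and *Ccl20*, running from 1.04% to 0.0238%, and of these neighbors *Lta* and *Cxcr5* alone had arrays that did not overlap (2.21 apart), *Ccl20* having 1 array. *Lta* was thus the lowest of the 7 with E-sel/AAV2/2 at 0.186%, although its own level was 0.115% with LacZ/AAV2/2. These percentages assume equal efficiency of all primer pairs.

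Of the 7 genes, 6 had a Ct on all 4 arrays and entered the limma fit of the panel, *Ccl20* being left out. Of these 6, 4 were called higher at an adjusted p-value under 0.05 (*Cxcl13*, *Cxcr5*, *Ccl19* and *Ccr6*), where 5.19% of the 77 tested genes were called higher and 0 lower (7 higher and 3 lower at an unadjusted p-value under 0.05). For 5 of the 6 the E-sel/AAV2/2 values were above the LacZ/AAV2/2 values without overlap, against 22.1% of the panel, and 5 of the 6 had a log2 difference of 3 or more, against 7.79%. The genes were selected on this contrast, so nothing is read from these counts. The 4 called genes are all that the fit called, so the 5.19% holds no gene outside the set. With limma 0 genes were called without E-sel/AAV2/2 replicate 1 (8 at an unadjusted p-value under 0.05), without E-sel/AAV2/2 replicate 2 (7) or with *B2m* as the only reference (26), and *Cxcl13* was not called without LacZ/AAV2/2 replicate 1. The median log2 difference was 4.82 for the 6 genes and -0.19 for all 77. The next gene below *Ltb* was *Cd40lg*, the CD40 ligand of helper T cells, at 3.17.

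**Figure D2:**
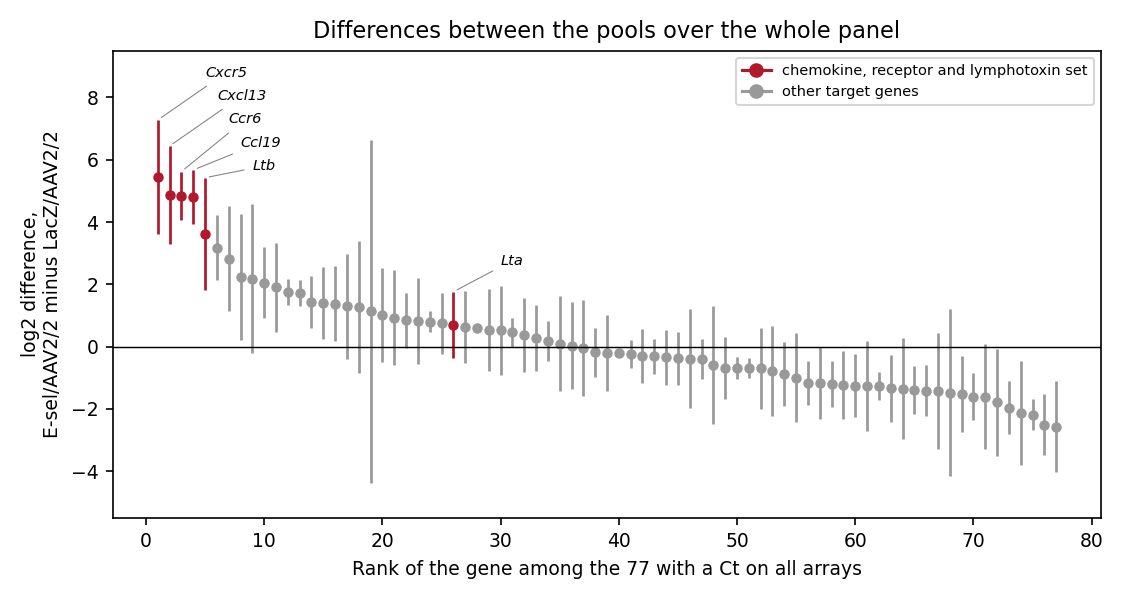
Log2 difference (E-sel/AAV2/2 minus LacZ/AAV2/2) of the 77 target genes tested, in order of size, with bars from the smallest to the largest gap between an array of one group and an array of the other. *Cxcr5*, *Cxcl13*, *Ccr6*, *Ccl19* and *Ltb* take ranks 1 to 5 with bars wholly above 0, and *Lta* takes rank 26 with a bar that crosses 0.

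The size of every difference moved with the reference, since the reference genes themselves differed between the pools. *B2m*, the light chain of MHC class I, read 1.44 higher and *Gapdh* 1.11 lower with E-sel/AAV2/2 against the mean of all 5, which shifts every gene with a Ct on all arrays down by 1.44 with *B2m* alone and up by 1.11 with *Gapdh* alone. With *B2m* alone the log2 differences were 4.01 for *Cxcr5*, 3.43 for *Cxcl13*, 3.40 for *Ccr6*, 3.36 for *Ccl19*, 2.18 for *Ltb* and 2.02 for *Ccl20*. With *Gapdh* alone they were 6.56, 5.98, 5.96, 5.92, 4.74 and 4.00 in the same order. Over every setting tried, the difference stayed above 0 for these 6 genes, with *Ccl20* lowest at 1.53.

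**Figure D3:**
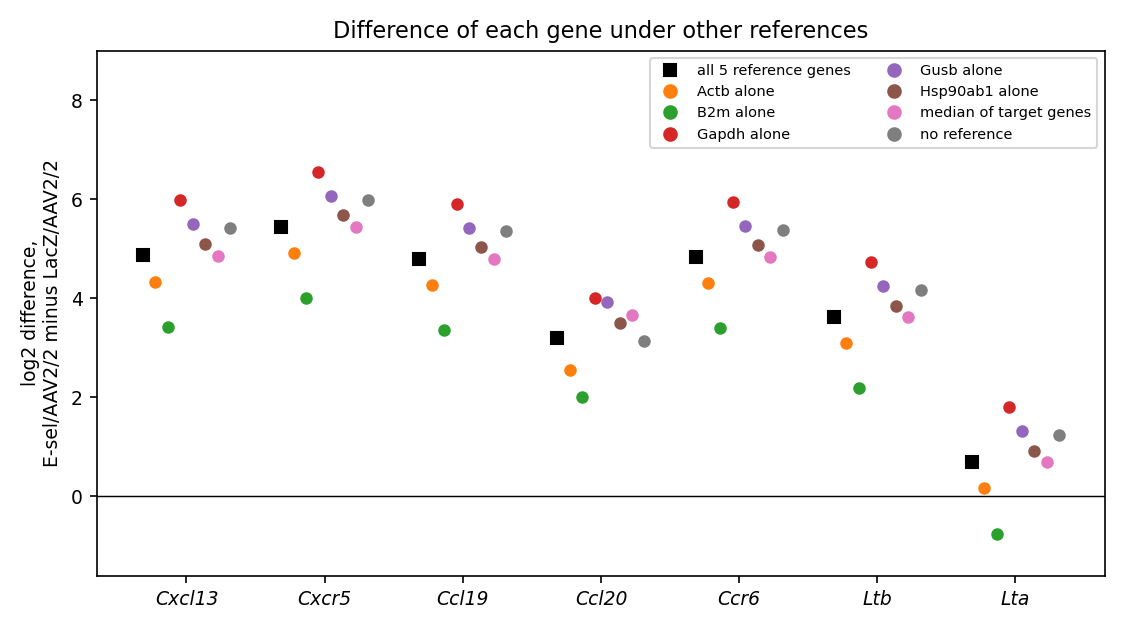
Log2 difference (E-sel/AAV2/2 minus LacZ/AAV2/2) of each gene with all 5 reference genes (black squares), each reference gene alone, no reference, or the target genes' median. The points of 6 genes stay above 0 under each reference, and *Lta* runs from -0.75 with *B2m* alone to 1.81 with *Gapdh* alone.

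A ratio between genes on the same array needs no reference gene, and was used to set ligand beside receptor. The log2 ratio of *Cxcl13* to *Cxcr5* was 3.60 and 6.02 with E-sel/AAV2/2 but 5.21 and 5.57 with LacZ/AAV2/2. The groups overlapped, and the mean ratio differed by -0.58 between the pools, less than the SD of 1.71 among the E-sel/AAV2/2 arrays. Ligand and receptor thus could not be told apart in the size of their difference at this spread. It was 0.63 without E-sel/AAV2/2 replicate 1 and -0.76 without LacZ/AAV2/2 replicate 1.

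The log2 ratio of *Ccl20* to its receptor *Ccr6* was -4.82 and -4.35 with E-sel/AAV2/2, and -3.42 on LacZ/AAV2/2 replicate 2. The ligand was the scarcer of the pair on each array with both values. The ratio was lower by 1.17 on average with E-sel/AAV2/2, that is, the receptor differed more between the pools than the ligand, but this rests on 1 LacZ/AAV2/2 well, and the change was -0.36 with the missing well set to the latest Ct recorded and -3.32 with late and missing wells set to 35.

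*Ltb*, *Tnf*, the gene of tumor necrosis factor, and *Lta* lie next to each other in that order on chromosome 17 (GRCm38.p6). The log2 ratio of *Ltb* to *Lta* was 4.68 and 4.92 with E-sel/AAV2/2 but 3.18 and 0.56 with LacZ/AAV2/2. The groups did not overlap, and the ratio was 2.93 higher on average with E-sel/AAV2/2, or 7.62-fold, with an SD of 0.17 and 1.85 (n = 2 each). It was 4.24 higher without LacZ/AAV2/2 replicate 1 and 1.62 higher without replicate 2, so its size depended on which LacZ/AAV2/2 array was used. The ratio of *Lta* to *Tnf* was 0.84 and 1.20 with E-sel/AAV2/2 and 1.54 and 0.97 with LacZ/AAV2/2. It overlapped and differed by -0.24 between the pools, within the SD of 0.40 among the LacZ/AAV2/2 arrays, and by 0.05 without LacZ/AAV2/2 replicate 1. *Tnf* itself had a log2 difference of 0.93 (limma SE 1.04, adjusted p = 0.681).

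The chemokines that lymphotoxin signaling is known to induce were also set beside each lymphotoxin chain. The changes in these ratios restate the differences of the single genes given above and are no further evidence. The log2 ratio of *Cxcl13* to *Lta* was 6.13 and 8.58 with E-sel/AAV2/2 and 2.22 and 4.14 with LacZ/AAV2/2, and that of *Ccl19* to *Lta* was 4.31 and 6.76 against 1.17 and 1.68. Neither overlapped between the groups, and their means differed by 4.18 and 4.11, or by 3.22 and 3.86 without LacZ/AAV2/2 replicate 1. The ratio of *Cxcl13* to *Ltb* was 1.45 and 3.66 against -0.96 and 3.58, and that of *Ccl19* to *Ltb* was -0.37 and 1.84 against -2.01 and 1.12. Both overlapped, and their mean differences of 1.25 and 1.18 were smaller than the SD within either group. They were -1.02 and -0.38 without LacZ/AAV2/2 replicate 1. For *Ccl20*, with 1 LacZ/AAV2/2 array, the mean ratio to *Ltb* differed by -1.51 and that to *Lta* by 2.74, the former turning to 0.86 with the missing well set to the latest Ct. The latter was 0.96 with late and missing wells set to 35, 4.11 without the first E-sel/AAV2/2 array and 1.36 without the other, and the former was -0.25 and -2.76 without these arrays in turn.

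**Figure D4:**
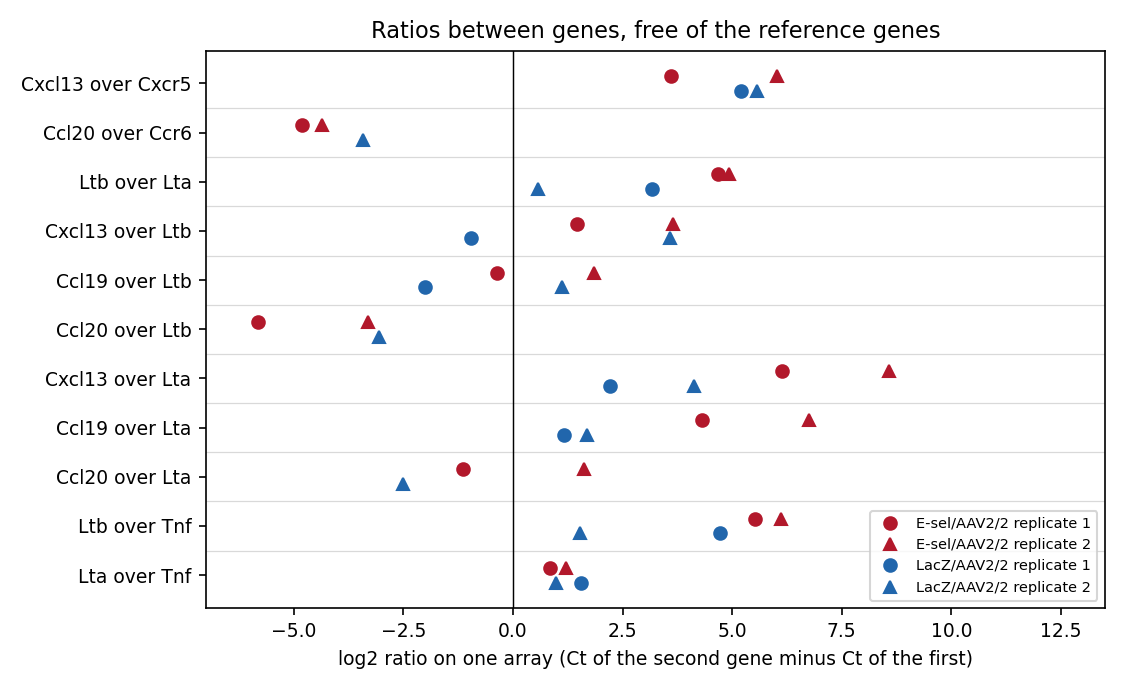
Log2 ratio between 2 genes on each array (Ct of the second gene minus Ct of the first), with E-sel/AAV2/2 in red, LacZ/AAV2/2 in blue, circles for replicate 1 and triangles for replicate 2. Ratios over *Lta* sit to the right with E-sel/AAV2/2, as for *Ltb* over *Lta* at 4.68 and 4.92 against 3.18 and 0.56, whereas *Cxcl13* over *Cxcr5* and *Lta* over *Tnf* overlap between the groups.

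Other genes of lymphoid tissue formation and B cell help were read from a list of 8, of which 7 had a Ct on all arrays. None of the 7 was called in either direction by limma (2 at an unadjusted p-value under 0.05). Over the panel 5.19% were called higher, all of them members of the chemokine, receptor and lymphotoxin set. The median log2 difference of these 7 listed genes was 0.93 beside -0.19 for the panel, or 0.56 without LacZ/AAV2/2 replicate 1. *Cd40lg*, which drives B cell activation, gave Ct values of 35.41 and 35.21 with E-sel/AAV2/2 and of 38.74 and 39.32 with LacZ/AAV2/2, all of them late, and a log2 difference of 3.17 (SE 1.01, limma adjusted p = 0.094). *Tnfsf11*, the RANK ligand needed for lymph node formation, gave Ct values of 32.07 and 32.03 against 34.59 and 36.26, a log2 difference of 2.83 (SE 1.10, limma adjusted p = 0.239). Limma called both genes without LacZ/AAV2/2 replicate 1, and with *Gapdh* or *Gusb* as the only reference. *Il7*, a survival factor of lymphocytes, stood at 1.73 (limma adjusted p = 0.396). *Tnfsf13b*, the B cell survival factor BAFF, was at 0.80 (limma adjusted p = 0.689), *Tnfsf13*, the related factor APRIL, at -0.69 (limma adjusted p = 0.716), and *Cxcl12*, a chemokine of stromal cells that also draws B cells, at -1.18 (limma adjusted p = 0.507). Of the 7 genes, 4 (*Cd40lg*, *Tnfsf11*, *Il7* and *Tnfsf13b*) lay above the LacZ/AAV2/2 arrays without overlap, where 22.1% of the panel did, and 2 (*Cxcl12* and *Tnfsf13*) lay below, where 20 of the 77 tested genes did. *Il21*, a cytokine of follicular helper T cells, had a Ct on 1 array only, 39.86 on E-sel/AAV2/2 replicate 1.

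Of 11 other lymphocyte genes, 9 were tested and none was called by limma in either direction (0 at an unadjusted p-value under 0.05). The 5.19% of the panel called higher again held only members of the chemokine, receptor and lymphotoxin set. Differences were above 0 for 7 and below it for 2, where 36 of the 77 tested genes were above 0. The median log2 difference was 0.81, or 0.14 without LacZ/AAV2/2 replicate 1. Without overlap, 3 lay above, *Il2rb* (2.23), *Il2rg* (1.43) and *Ccr4* (1.38), where 22.1% of the panel did. Below without overlap lay 2, *Ccr10* (-1.79) and *Il17f* (-0.68), where 20 of the 77 did. *Ccr8*, a receptor of regulatory T cells, and *Il17a*, the cytokine of T cells that carry CCR6, each lacked a Ct on LacZ/AAV2/2 replicate 1, as *Ccl20* did. *Il17a* gave Ct values of 39.65 and 37.40 with E-sel/AAV2/2, and 39.07 on the other LacZ/AAV2/2 array, at the limit of the assay.

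Genes listed as markers of the other cell types that the tissue could hold were read next. Limma called none of them in either direction (1, *Cd40lg*, at an unadjusted p-value under 0.05). Over the panel 0 genes were called lower and 5.19% higher, the latter all members of the chemokine, receptor and lymphotoxin set. The 5 T lymphocyte markers (*Cd40lg*, *Cxcr3*, *Il2rb*, *Ifng* and *Fasl*, all also in the lists above) had a median log2 difference of 0.85, which was 0.14 without LacZ/AAV2/2 replicate 1. Their summed level was 1.21% and 1.08% of the mean reference level with E-sel/AAV2/2 against 0.348% and 0.940% with LacZ/AAV2/2. These sums did not overlap, but *Cxcr3*, the highest of the 5 on every array and so the largest part of each sum, did. Its -ΔCt was -7.11 and -6.77 against -8.49 and -6.89. Of the 5, 2 (*Cd40lg* and *Il2rb*) lay above without overlap, where 22.1% of the panel did. For 8 macrophage and monocyte markers 7 of 8 differences were below 0, where 36 of the 77 tested genes lay above 0. Their median was -1.25 (-1.69 without LacZ/AAV2/2 replicate 1). Of the 8, 3 lay below without overlap, where 20 of the 77 did, and 0 above. The summed level was 32.9% and 57.3% against 48.3% and 269%. The last value came mostly from *Ccl6*, whose -ΔCt was 1.32 on LacZ/AAV2/2 replicate 2. Of the 4 genes listed for neutrophils (*Cxcr2*, *Osm*, *Csf3* and *Il1rn*), 3 had differences above 0, with a median of 0.81 (0.72 without LacZ/AAV2/2 replicate 1). *Cxcr2* was highest at 1.90 and *Il1rn* lowest at -1.17. Without overlap, 2 lay above, where 22.1% of the panel did, and 1 below, where 20 of the 77 tested genes did. The summed level of the 4 was 0.931% and 0.553% against 0.996% and 0.801%. *Osm*, *Csf3* and *Il1rn* are not particular to neutrophils, so these values do not measure neutrophil content. The 2 eosinophil markers, with a median of -0.62, summed to 1.23% and 0.549% against 1.16% and 5.28%, and the platelet marker *Pf4* stood at 4.86% and 4.80% against 5.07% and 6.10%. None of these markers lacked a Ct on any array. The panel holds no gene that defines B cells, since follicular helper T cells also carry CXCR5. The part of cell content in the differences above was not tested here.

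The genes most like the set in pattern were found by the distance, over the 4 arrays, between each gene's -ΔCt centered on its own mean and the mean centered profile of the 6 genes tested. The 5 nearest of the other target genes were *Cd40lg* (distance 2.02), *Ccl5*, a chemokine of T cells (2.24), *Il1a*, an alarmin of the interleukin 1 family (2.33), *Cxcr2*, a receptor of neutrophils (2.36), and *Il7* (2.42). Within the set the distances ran from 1.09 for *Ccr6* and 1.15 for *Ccl19* to 2.23 for *Ltb* and 3.47 for *Lta*, so that *Lta* lay farther from the profile of its own set than these 5 genes did. With 4 arrays this is a description of likeness and nothing more.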

How the data were processed

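Each pool was measured on 2 Qiagen RT2 Profiler PCR arrays of inflammatory cytokines and receptors. As deposited, the table holds the Ct of each of 96 wells, not normalized, with empty entries where none was recorded, and the authors' baseline and threshold settings were not given in the sources used here. A second table holds the authors' fold ratios, of which only the gene symbols were used. All 89 target and reference symbols matched the GRCm38.p6 gene table.

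The genes and the lists around them were chosen with earlier results of these data known. Following the study's methods, -ΔCt to the mean of the 5 reference genes was compared between the groups by limma's moderated test (version 3.58.1, R 4.3.3), two-sided and with no covariate, over the 77 target genes with a Ct on all 4 arrays, with Benjamini-Hochberg adjustment and a threshold of 0.05. The fit was tested on simulated data. Late Ct values were kept, and full PCR efficiency was assumed. The named genes were the 7 genes, those of the lists drawn up for lymphoid tissue, lymphocytes and other cell types, and the 5 most alike in pattern. Alternatives were other references, late or missing wells set to a fixed Ct or left out, omission of each array, a block on replicate number, a mean-variance trend, the reference genes tested too, and ratios of mean 2^-ΔCt. Promoters were searched and figures drawn in Python 3.11.15 with matplotlib 3.10.9.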

Additional observations from a re-analysis of the deposited data

How the results depend on the processing

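The 4 genes called became 7 over the panel with *Gapdh* or *Gusb* alone, and 0 with *B2m* alone, where the 7 genes studied also gave 0. Leaving out 1 array gave 0 calls (either E-sel/AAV2/2 array) to 6 (LacZ/AAV2/2 replicate 1) over the panel and 0 to 4 among the 7 genes, a lone array being assumed to vary like the others. With the replicate block 5 genes were called, *Ltb* being the added one, and no other call changed. The replicate numbers have no stated meaning, and the repeat differences of the 2 groups correlated at r = 0.33 across genes. *Lta* turned to -0.75 with *B2m* alone and ran from -0.15 to 1.53 with 1 array left out. With Ct above 35 set to 35, the ratio of *Cxcl13* to *Cxcr5* turned to 1.03 and that of *Lta* to *Tnf* to 0.53. With 1 array left out, these ratios ran from -1.79 to 0.63 and from -0.52 to 0.05, *Cxcl13* to *Ltb* from -1.02 to 3.51 and *Ccl19* to *Ltb* from -0.38 to 2.74. With the missing well at the latest Ct, *Ccl20* to *Ltb* turned to 0.86. Without LacZ/AAV2/2 replicate 2, *Ccl20* had no LacZ/AAV2/2 value. Over all alternatives, 126 differences of single genes moved by less than the SD between arrays, 15 by more and 2 turned, and 67 ratios moved by less, 2 by more and 7 turned. The causes were not tested.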

Other observations

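These values were looked at after the data had been seen. *Ccl19* and *Ccr6*, which are not ligand and receptor of each other, kept nearly the same distance on every array. *Ccr6* came up 0.63, 0.80, 0.75 and 0.76 cycles after *Ccl19* on E-sel/AAV2/2 replicates 1 and 2 and LacZ/AAV2/2 replicates 1 and 2, a range of 0.17 cycles, while the Ct of either gene ran over about 7 cycles. Their SD of 0.0733 cycles was the lowest of all 2926 pairs of tested genes, for which the median was 1.38, and the next pair, *Ccl9* and *Cxcl5*, had 0.0932. With so many pairs some will be close by the number of comparisons alone, and no test was made.

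The repeat arrays of 1 pool also divided the genes, a comparison that does not involve the other pool. With E-sel/AAV2/2, *Cxcl13*, *Ccl19*, *Ccl20* and *Ccr6* had a higher -ΔCt on replicate 2, by 0.77, 0.77, 1.07 and 0.60, whereas *Cxcr5*, *Ltb* and *Lta* had a higher one on replicate 1, by 1.65, 1.44 and 1.68. *Tnf* went with the latter, by 2.04. With LacZ/AAV2/2, *Ltb* alone of the 6 genes with both values was higher on replicate 1, by 2.16, and *Cxcl13* differed most in the other direction, by 2.38. Such gaps between repeats of 1 pool exceed the median gap of the tested genes, 0.756 (E-sel/AAV2/2) and 1.12 (LacZ/AAV2/2), for 6 of the 7 genes with E-sel/AAV2/2 and for 3 of 6 with LacZ/AAV2/2.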
